A study of Mus musculus with 12 samples.

Results

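The genes described here are those of the kallikrein-kinin system in embryonic mouse kidney: the bradykinin receptor genes Bdkrb2 and Bdkrb1, the kininogen gene Kng1, the tissue kallikrein gene Klk1 and its relative Klk1b24, and Cpn1, the catalytic subunit of carboxypeptidase N. They were chosen by name, as the non-control probes whose accession maps to one of these symbols. All 6 genes were on the array, with 7 probes in all, out of 17305 genes that could be given a symbol and 41174 probes. Kidneys of Bdkrb2 null embryos were set against kidneys of Bdkrb2 WT embryos at embryonic day 14.5. Both genotypes were progeny of heterozygous parents on a C57BL/6 genetic background, and the mothers of both ate food with 5% sodium, so no group without the salt diet was measured. How the null allele was made is not stated in the labels used here, and neither are the sex, litter and number of embryos behind each RNA sample.

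Kinins are short peptides that tissue and plasma kallikreins cut out of the precursor protein kininogen. Bradykinin and kallidin act on the B2 receptor, which is present constitutively, and carboxypeptidases turn them into des-Arg peptides that act on the B1 receptor, which is usually induced by injury or inflammation. In the grown kidney tissue kallikrein is made in the connecting tubule and collecting duct, and the system is known for its part in salt excretion and renal blood flow.

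Null and WT RNA were labelled with opposite dyes and hybridised to the same two-colour array. Null RNA carried Cy5 on the 6 arrays called null/WT, and Cy3 on the 6 arrays called WT/null. Each orientation had 3 numbered replicates with 2 arrays each. Each of the 3 slides held the 4 arrays of 1 replicate number, so slide and replicate number are the same thing here. Across the 12 arrays, 40.5% to 57.8% of probes were well above background in the null channel and 47.8% to 59.4% in the WT channel. The first array of WT/null replicate 3 stood apart: the SD of its log2 ratios was 0.38 where the other 11 arrays had 0.16 to 0.26, and it correlated at 0.71 with its duplicate, against 0.82 to 0.92 for the other 5 duplicate pairs. Both arrays of that replicate had fewer probes well above background in the null channel, 40.5% and 44.2%, against 51.3% to 57.8% on the others. Transcripts that tell the sexes apart also differed by slide, and on slides 2 and 3 between the genotypes. The X-inactivation transcript Xist was well above background on 4 of 4 null and 4 of 4 WT channels of slide 1, but on slides 2 and 3 on 4 of 4 null and 0 of 4 WT channels each, and the Y-linked gene Ddx3y on 0 of 4 null and 4 of 4 WT channels of slides 2 and 3 and in neither genotype on slide 1. On slides 2 and 3 genotype and embryo sex therefore cannot be told apart, for any gene. Every genotype mean over all slides includes those slides. The sex transcripts were chosen after their values were seen.

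Detection came first, because most of these transcripts were near the limit of the arrays. A spot counts as well above background by the scanner software's own flag for that colour, and the number of arrays limits the precision. Cpn1 was well above background on 12 of 12 null and 12 of 12 WT channels, and Bdkrb1 on 10 of 12 null and 10 of 12 WT channels. Klk1b24 was well above background on 7 of 12 null and 8 of 12 WT channels, and Klk1 on 7 of 12 null and 4 of 12 WT channels. Kng1 was well above background on 4 of 12 null and 2 of 12 WT channels by probe A_51_P451377, and on 0 of 12 null and 0 of 12 WT channels by probe A_52_P151983. Bdkrb2 was well above background on 0 of 12 null and 1 of 12 WT channels. A probe was tested where either genotype was well above background on at least 6 of 12 arrays, which kept 4 of the 7 probes, those of Bdkrb1, Klk1, Klk1b24 and Cpn1. Over the whole array 55.8% of probes met that rule, 38.5% were well above background on every array in both genotypes, and 34.4% on none in either.

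Bdkrb2, the gene that null embryos lack, encodes the B2 receptor. Its only probe, A_51_P456753, gave a net signal (median spot minus median local background, in scanner units) from -3 to 36 in null channels with a median of 8.75, and from 2 to 19 in WT channels with a median of 10.2. The WT range lay inside the null range. The 1 WT channel well above background was on the second array of null/WT replicate 2, at 19 units, where the null channel of the same array read 12.5 units. Log2 null over WT ranged from -0.19 to 0.47 over the 12 arrays, and no fold is given because both genotypes were at background. By the scanner's weaker flag, positive and significant signal, Bdkrb2 was seen on 3 of 12 null and 4 of 12 WT channels. The labels used here do not say which part of the gene the null allele lacks, so at this signal the probe checks neither the allele nor the genotype labels.

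Bdkrb1, the B1 receptor gene, lies next to Bdkrb2 on chromosome 12, and its values were slightly higher in null kidneys without passing the test. In Cy5 its net signal was 59 to 89.5 units in null channels with a median of 76.2, against 15 to 64.5 units in WT channels with a median of 44.2. In Cy3 it was 28 to 36 units in null channels with a median of 28.2, against 14.5 to 21 units in WT channels with a median of 18.5. Within Cy3 the genotypes did not overlap, as for 0.152% of all tested probes, and within Cy5 they overlapped between 59 and 64.5 units. Within a dye the genotypes come from different arrays. In Cy3 null was well above background on 4 of 6 arrays and WT on 5 of 6. The Cy3 null values of slide 3, 36 and 28 units, were not well above background, while null values of 28 units on slide 1 were. The replicates' log2 null over WT ratios were 0.24, 0.37 and 0.42 where null carried Cy5, and 0.06, 0.08 and -0.03 where null carried Cy3. The null/WT replicates were thus the higher ones, and 5 of 6 replicates were above 0. The mean was 0.19 ± 0.04 (SE, n = 6 replicates in 3 pairs; 95% interval 0.0935 to 0.287), a fold of 1.14, with a limma adjusted p of 0.382 over all 22979 tested probes. The unadjusted p was 0.00186 by limma. The dye term of this probe was 0.15 with a limma adjusted p of 0.0490, a threshold that 13.5% of all tested probes passed. Of the 4 tested members Bdkrb1 varied least between slides, at 0.15, 0.23 and 0.19 on slides 1, 2 and 3 (limma F test between slides, adjusted p = 0.855). From the scanner software's own log ratios the same mean came to 0.76 with a limma adjusted p of 0.508.

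**Figure D1:**
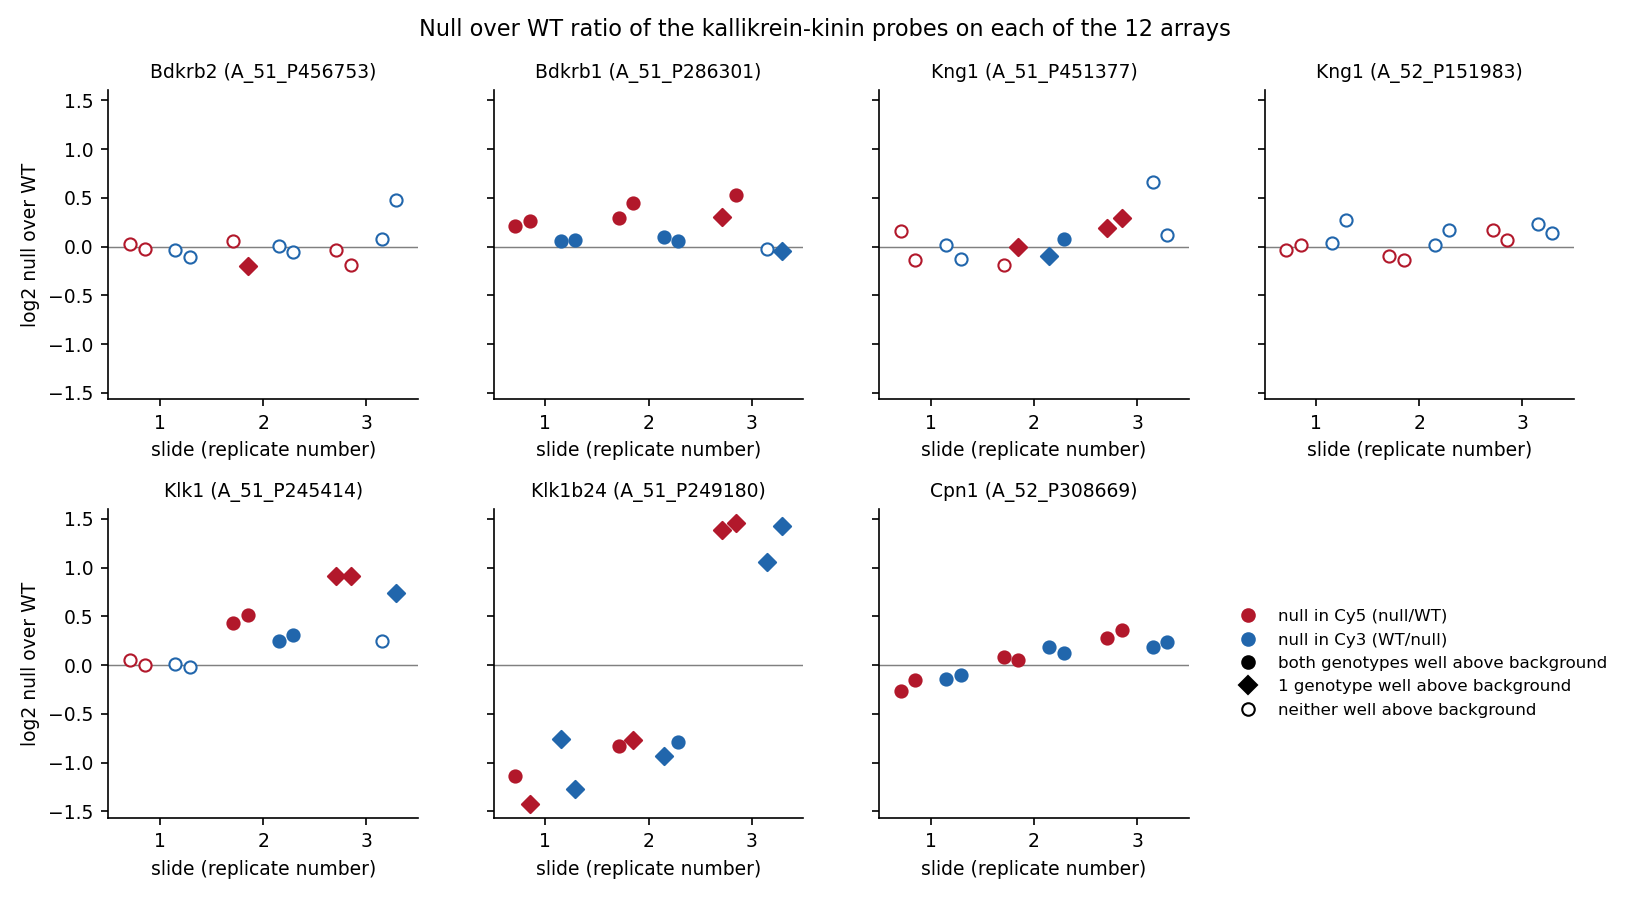
Log2 null over WT (vertical axis) of each of the 7 probes on each of the 12 arrays, ordered along the horizontal axis by slide, which is also the replicate number. Red points had null RNA in Cy5 and blue points null RNA in Cy3. Filled circles mark arrays with both genotypes well above background, diamonds those with 1 genotype, and open circles those with neither. Klk1b24 is below 0 on all 8 arrays of slides 1 and 2 and above 1 on all 4 arrays of slide 3, while Bdkrb1 is higher in red than in blue on each slide.

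Kng1 encodes kininogen, the kinin precursor, which in the adult is made mainly by the liver. By probe A_51_P451377 its net signal was 5 to 104 units in null channels with a median of 19.5, and 6 to 34.5 units in WT channels with a median of 15.8. The replicates' log2 ratios stood at 0.01 and -0.05 on slide 1, at -0.10 and -0.01 on slide 2, and at 0.24 and 0.39 on slide 3 (null/WT before WT/null). On slide 3 the null channel was well above background on 2 of 4 arrays and the WT channel on 0 of 4. The highest null value, 104 units, came from the first array of WT/null replicate 3 and was not itself well above background. By probe A_52_P151983 the net signal was 0 to 21 units in null channels with a median of 7.5, and -3.5 to 13 units in WT channels with a median of 7. Neither probe was tested. The liver markers also had their highest median on slide 3, as did the leukocyte markers (0.04, 0.02 and 0.28 on slides 1, 2 and 3). Of 9 liver genes 8 had a probe, 4 of these were well above background on no array (Fga, Ttr, Apob and Apoa1), and the 4 tested ones had a median log2 ratio of 0.00, 0.10 and 0.27 on slides 1, 2 and 3. Afp, alpha-fetoprotein, stood at -0.07, 0.05 and 1.45. Alb stood at -0.03, 0.14 and 0.28 and Fgb at 0.04, 0.05 and 0.26. Trf went the other way and was lowest on slide 3, at 0.13, 0.15 and 0.05. The summed level of the 4 tested liver genes ranged from 2200 to 7009 in null channels and from 2198 to 6745 in WT channels (linear normalized intensity). Their part in the Kng1 signal was not tested.

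Klk1 encodes true tissue kallikrein, the enzyme that releases kallidin or bradykinin from kininogen in the kidney. Its probe, A_51_P245414, read background in both genotypes on slide 1, signal in both on slide 2 and signal in null alone on slide 3. On slide 1 the net signal was 2.5 to 14 units in null channels and 1.5 to 7.5 units in WT channels, with neither genotype well above background on any of the 4 arrays. On slide 2 it was 63 to 181 units in null channels and 43 to 130 units in WT channels, and both genotypes were well above background on 4 of 4 arrays. On slide 3 it was 58 to 142 units in null channels and 11.5 to 13.5 units in WT channels, with null well above background on 3 of 4 arrays and WT on 0 of 4. The genotypes' net signals did not overlap on slide 3, as for 3.87% of all tested probes, and overlapped on slides 1 and 2.

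Set side by side within each array, Klk1 was higher in null on all 8 arrays of slides 2 and 3. The array ratios were 0.43 and 0.51 (null/WT) and 0.24 and 0.31 (WT/null) on slide 2, and 0.92, 0.91, 0.25 and 0.74 on slide 3. The slide 2 mean of 0.37 is a 1.30-fold higher level in null, and on slide 3 null was at least 1.61-fold higher. Slide 1 gave 0.01, with both genotypes at background. Over all 6 replicates the mean was 0.36 ± 0.11 (SE, n = 6 in 3 pairs; 95% interval 0.113 to 0.614), above 0 in 5 of 6, with a limma adjusted p of 0.594 and an unadjusted p of 0.00998. The difference between slides did not pass either (limma F test, adjusted p = 0.0876). The value ranged from 0.19 without replicate 3 to 1.49 from the scanner software's log ratios and 1.80 from the series value table, which holds 9 of the 12 arrays for this probe. Its lowest limma adjusted p under any alternative was 0.190.

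Markers of the segment that makes kallikrein in the grown kidney were partly higher on the same slides. All 7 connecting tubule and collecting duct genes were tested, 5 were above 0, 3 had an unadjusted limma p under 0.05 with none past the adjusted threshold, and their median log2 ratio was 0.03, 0.06 and 0.12 on slides 1, 2 and 3. The water channel genes Aqp3 and Aqp2 stood at 0.17, 0.28 and 1.03 and at 0.03, 0.21 and 0.79, and Calb1, the calcium-binding protein of the distal tubule, at 0.03, -0.01 and -0.14. Their summed level was 20409 to 23440 in null channels and 20084 to 23691 in WT channels. Their part in the Klk1 ratio was not tested, and in whole kidney fewer cells of a type and less RNA per cell cannot be told apart.

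Klk1b24 belongs to the Klk1-related peptidases, a mouse family of closely similar genes on chromosome 7 whose best known members act in the salivary gland. It had the widest spread of any member: null was the lower genotype on slides 1 and 2 and the higher one on slide 3. On slide 1 the null channels gave 9.5 to 22 units and the WT channels 63 to 172 units, and null was well above background on 1 of 4 arrays and WT on 4 of 4. On slide 2 the null channels gave 10 to 41.5 units and the WT channels 52 to 151 units, and null was well above background on 2 of 4 arrays and WT on 4 of 4. On slide 3 the null channels gave 110 to 265.5 units and the WT channels 11 to 16 units, and null was well above background on 4 of 4 arrays and WT on 0 of 4. The genotypes did not overlap on any slide, as for 0.0174% of all tested probes, and each genotype was bright on some slides and near background on the others.

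The array ratios of Klk1b24 held to this in both dye orientations. On slide 1 they were -1.14 and -1.42 (null/WT) and -0.76 and -1.27 (WT/null), a mean of -1.15, and no fold is given because null was well above background on 1 of these 4 arrays. On slide 2 they were -0.82 and -0.77 (null/WT) and -0.93 and -0.79 (WT/null), a mean of -0.83 with null well above background on 2 of these 4 arrays. On slide 3 they were 1.38 and 1.46 (null/WT) and 1.06 and 1.42 (WT/null), a mean of 1.33. Null was at least 2.52-fold higher by the bound, which here equals the mean ratio, with WT well above background on 0 of these 4 arrays. The 2 arrays of a replicate and the 2 orientations of a number had the same sign throughout. The genotype mean was -0.21 ± 0.39 (SE, n = 6 in 3 pairs; 95% interval -1.11 to 0.681) with a limma adjusted p of 0.859, so this probe gives no direction for the genotype. Without replicate 3, which is slide 3, the genotype mean was -0.99 and passed (limma adjusted p = 0.00825). That setting leaves out the only slide where null was the higher genotype, and 62 probes passed in it. Without replicate 1 the genotype mean was 0.25 and without replicate 2 0.09. The difference between slides passed (limma F test, adjusted p = 0.00215), as it did for 1.48% of all 22979 tested probes. Slide 3 exceeded the mean of slides 1 and 2 by 2.32 on the log2 scale. Means above 0.5 on one slide and below -0.5 on another were seen for 32 probes, or 0.139% of those tested. The F test was added after these values had been seen, and its error term is the spread between the 2 orientations of a slide.

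**Figure D2:**
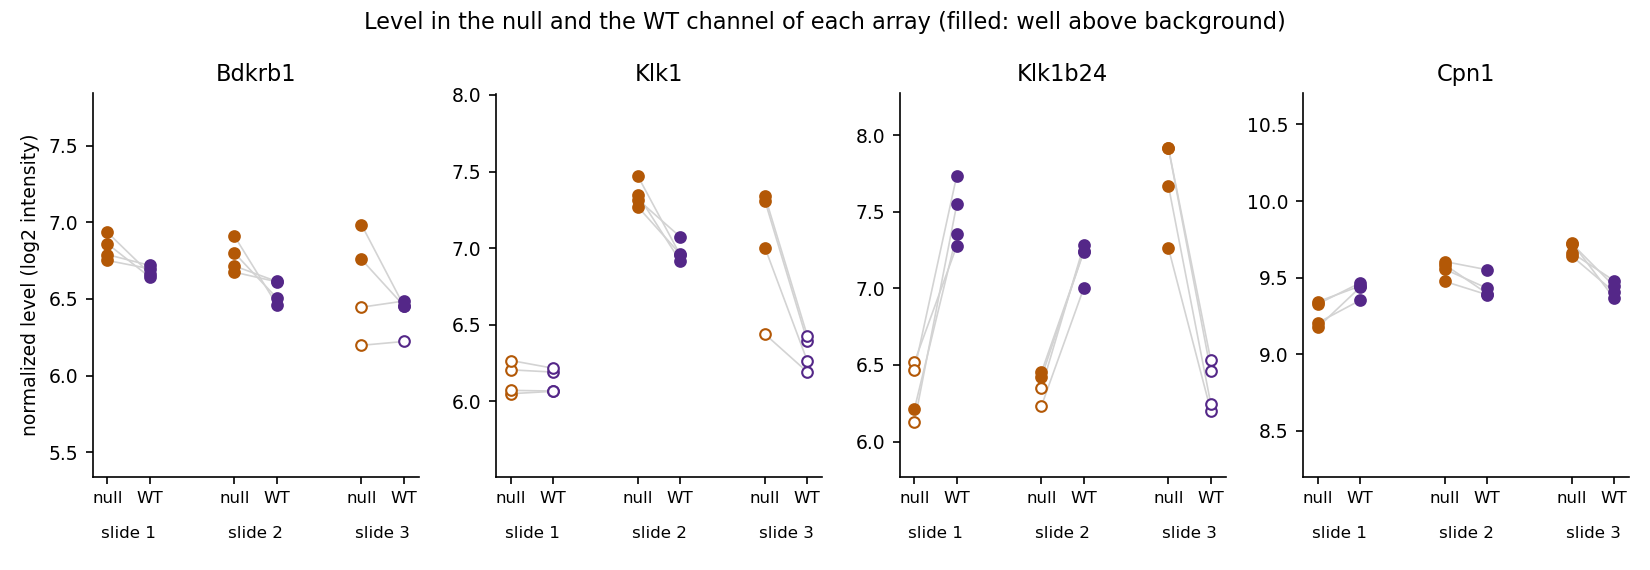
Normalized level (log2 intensity, vertical axis) of the 4 tested genes in the null and the WT channel of each array, grouped by slide along the horizontal axis, with a line joining the 2 channels of an array and filled points for channels well above background. For Klk1b24 the null points lie below the WT points on slides 1 and 2 and above them on slide 3, and for Klk1 both genotypes lie at background on slide 1. Each panel has its own vertical axis, and levels are not compared between genes.

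Xist stood at 0.20, 2.42 and 1.89 on slides 1, 2 and 3 and Ddx3y at -0.01, -3.12 and -2.52, beside -1.15, -0.83 and 1.33 for Klk1b24 and 0.01, 0.37 and 0.70 for Klk1. A part of embryo sex in the kallikrein ratios, or in any other genotype ratio given here, was not tested. The first array of WT/null replicate 3 gave 1.06 for Klk1b24, the lowest of the 4 slide 3 values, and its 3 companions gave 1.38 to 1.46.

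Transcripts of related family members can cross-hybridise, and neither probe nor transcript sequences are used here, so a Klk1b24 or Klk1 signal cannot be tied to that gene alone. The promoter windows show how alike the genes are upstream and say nothing of the transcripts. The windows of Klk1b24 and Klk1, 300 bases around each annotated start, are given below 5′ to 3′ from RefSeq on GRCm38.p6, with the runs of at least 10 bases identical in their alignment in capitals.
Klk1b24, chr7:44187986-44188285, plus strand: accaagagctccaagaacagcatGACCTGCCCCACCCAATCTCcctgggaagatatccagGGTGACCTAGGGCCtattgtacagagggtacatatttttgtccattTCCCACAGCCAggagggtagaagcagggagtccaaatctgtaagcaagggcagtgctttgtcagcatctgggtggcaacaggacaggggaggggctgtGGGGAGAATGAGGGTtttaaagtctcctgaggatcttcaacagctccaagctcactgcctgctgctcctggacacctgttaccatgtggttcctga
Klk1, chr7:44225110-44225409, plus strand: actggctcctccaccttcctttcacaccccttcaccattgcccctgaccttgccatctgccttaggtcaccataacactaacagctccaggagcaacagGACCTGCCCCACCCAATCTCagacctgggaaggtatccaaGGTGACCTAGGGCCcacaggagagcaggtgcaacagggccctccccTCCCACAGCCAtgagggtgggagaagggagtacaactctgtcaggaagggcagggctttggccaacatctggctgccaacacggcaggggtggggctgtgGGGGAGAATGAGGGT
The alignment covered 218 bases with 177 identical (81.2%) and 7 gap bases, and its 4 capitalised runs summed to 60 bases, the longest of 20. Bases 1 to 219 of the Klk1b24 window were set against bases 77 to 300 of the Klk1 window, so the annotated starts of the 2 genes do not fall at the same aligned base. The promoters of 12 other Klk1b genes matched that of Klk1b24 at 84.9% to 98.1%, with Klk1b21 the closest at 98.1% over 264 bases. The Klk1b21 probe was well above background on 0 of 12 null and 0 of 12 WT channels. The shared runs are a description of these windows and not sites of any factor.

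The rest of the Klk1 and Klk1b family was mostly not detected. Of 12 such genes with a probe, 6 were well above background on no array of either genotype, and 4 were tested by 5 probes, Klk1, Klk1b3, Klk1b4 and Klk1b24. Klk1b3, whose transcript encodes the gamma subunit of nerve growth factor complex in mouse salivary gland, had 2 probes. By A_51_P389929 it stood at -0.28, 0.05 and 0.46 on slides 1, 2 and 3, with null well above background on 0, 4 and 3 of 4 arrays and WT on 4, 4 and 0 of 4. By A_51_P413147 it stood at 0.00, 0.26 and 0.34, with null well above background on 0, 4 and 3 of 4 arrays and WT on 0, 4 and 0 of 4. The 2 Klk1b3 probes disagreed on slide 1. Klk1b4 stood at 0.03, 0.13 and 0.17, with null well above background on 0, 4 and 2 of 4 arrays and WT on 0, 4 and 0 of 4. Klk1, the second Klk1b3 probe and Klk1b4 thus shared the same pattern of detection over slides and genotypes, apart from 1 null array of slide 3, and Klk1b24 did not share it. Whether the dimmer family signals came from their own transcripts or from related ones was not tested.

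**Figure D3:**
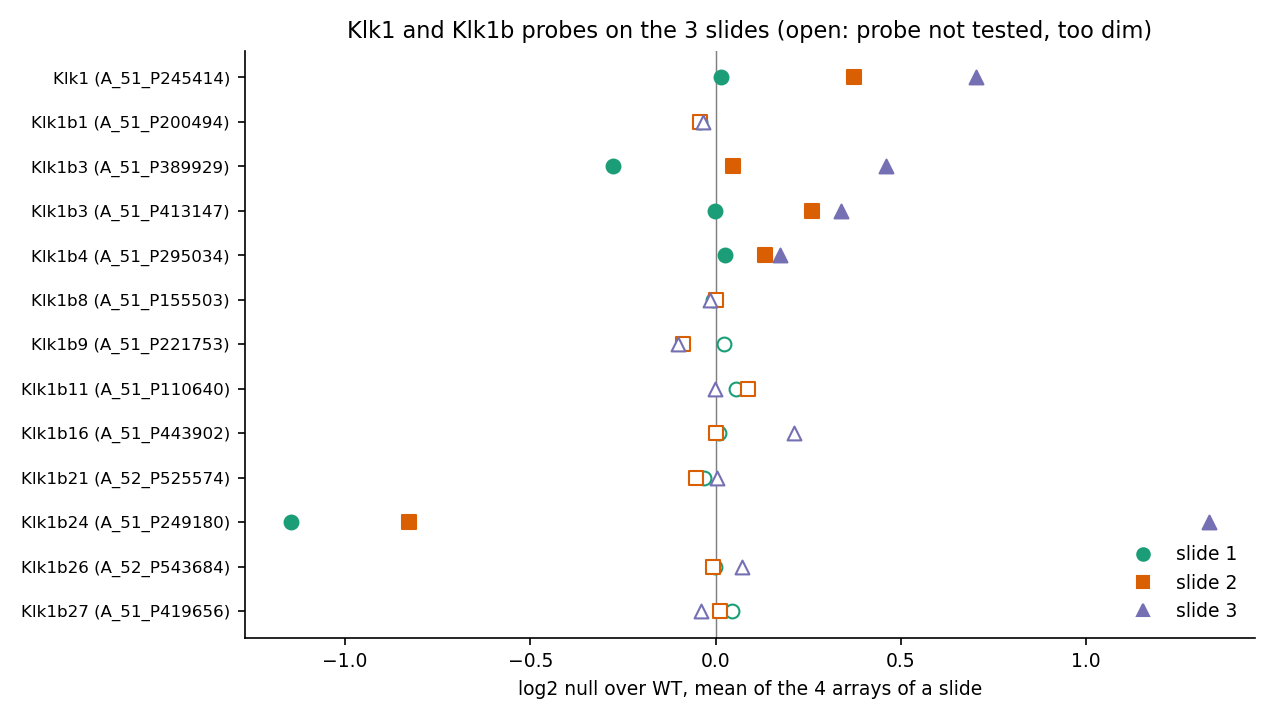
Mean log2 null over WT of the 4 arrays of each slide (horizontal axis) for the 13 Klk1 and Klk1b probes (one row each), with circles for slide 1, squares for slide 2 and triangles for slide 3. Filled symbols are the 5 tested probes and open symbols the 8 probes too dim to test. Klk1b24 runs from -1.15 on slide 1 to 1.33 on slide 3, while the highest open symbol, that of Klk1b16 on slide 3, is at 0.21.

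Cpn1 was the one member measured clearly on every array, and it did not differ between the genotypes past the test. It encodes the catalytic chain of carboxypeptidase N, the plasma enzyme that trims the last arginine from bradykinin and so makes B1 receptor ligands. In Cy5 its net signal was 846 to 1451 units in null channels with a median of 1189, against 774 to 1355 units in WT channels with a median of 886. In Cy3 it was 323 to 495 units in null channels with a median of 452, against 281.5 to 491 units in WT channels with a median of 354. The genotypes overlapped in both dyes. The replicates' log2 ratios were -0.20 and -0.12 on slide 1, 0.07 and 0.16 on slide 2, and 0.32 and 0.21 on slide 3 (null/WT before WT/null). All 4 arrays of slide 1 were below 0 and all 8 arrays of slides 2 and 3 above 0, with slide means of -0.16, 0.11 and 0.26. The genotype mean was 0.07 ± 0.07 (SE, n = 6 in 3 pairs; 95% interval -0.0970 to 0.241) with a limma adjusted p of 0.766. The difference between slides did not pass (limma F test, adjusted p = 0.136). Without replicate 3 the genotype mean was -0.02. Cpn2, the gene of the regulatory chain of the same enzyme, was well above background on 0 of 12 null and 0 of 12 WT channels.

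Over all members, 0 of the 4 tested probes passed the genotype test, where 0.0392% of all 22979 tested probes did (9 probes, 0.0218% higher and 0.0174% lower in null). At an unadjusted limma p under 0.05 there were 2, Bdkrb1 and Klk1, both higher in null, where 7.01% of all tested probes met that threshold. With the 3 pairs of orientations as the units, 0 of 4 passed by limma, with adjusted p of 0.904 for Bdkrb1, Klk1 and Cpn1 and 0.930 for Klk1b24. There the unadjusted p was 0.00815 for Bdkrb1 and 0.0223 for Klk1, and 3.3% of all tested probes were under 0.05. None of the 4 had the same sign in all 6 replicates, which 2.92% of all tested probes had. The F test between slides passed for 1 of 4, Klk1b24, beside the 1.48% given above. The median log2 ratio of the 4 tested members was 0.13, against -0.00 over 12647 tested genes.

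The other genes of the pathway were described by lists chosen with earlier results of these data known. Of 28 other kininogen and kallikrein genes 25 had a probe, 14 of these were well above background on no array, and 5 were tested. Kng2, the second mouse kininogen gene, Klkb1, the plasma kallikrein gene, and F12, the gene of the factor that activates it, were well above background on 0 of 12 channels of either genotype. By the brightest tested probe of each gene none of the 5 passed by limma, 3 were above 0 and 2 below, and the median was 0.01, beside 6078 of 12647 tested genes above 0 over the whole array. By those probes 1 gene, Klk1b4, had an unadjusted p under 0.05, at 0.11 ± 0.05 (limma adjusted p = 0.710), where 984 of the 12647 did. The dimmer Klk1b3 probe A_51_P413147 stood at 0.20 (limma adjusted p = 0.647) and also had an unadjusted p under 0.05. Klk4, Klk9 and Klk8 stood at 0.01, -0.05 and -0.05.

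Of 22 genes of kinin breakdown and its inhibitors 21 had a probe and 18 were tested. By the brightest probes none passed by limma, 11 were above 0 and 7 below, and the median was 0.02. There were 2 with an unadjusted p under 0.05, beside the 984 of 12647 over all tested genes. Anpep, an aminopeptidase of the brush border, stood at 0.22 ± 0.08 with 0.02, 0.14 and 0.50 on slides 1, 2 and 3. Enpep, which trims angiotensin, stood at 0.21 ± 0.10 with 0.09, -0.04 and 0.59. Ace, the kininase that also makes angiotensin II, stood at 0.12 ± 0.06 by its tested probe (0.02, 0.03 and 0.31). Cpd and Ece1, a carboxypeptidase and an endothelin-converting enzyme, each stood at 0.11 ± 0.05. At the other end were the aminopeptidase gene Xpnpep1 (-0.15 ± 0.09), Ece2 (-0.12 ± 0.08), the thimet oligopeptidase gene Thop1 (-0.08 ± 0.07) and Serping1, the inhibitor of plasma kallikrein (-0.03 ± 0.04). Their lowest limma adjusted p was 0.675, that of Anpep.

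Of 30 names in the list of kinin receptor signalling 26 had a probe and 19 were tested. By the brightest probes none passed by limma, 14 were above 0 and 5 below, against 6078 of 12647 above 0 over all tested genes, and the median was 0.06. There were 4 with an unadjusted p under 0.05, against 984 of 12647. The 3 inositol trisphosphate receptor genes, whose channels release calcium after B2 or B1 receptor activation, had the largest values of the list by those probes. Itpr2 stood at 0.29 ± 0.06 (limma adjusted p = 0.269), above 0 in 6 of 6 replicates, with 0.36, 0.13 and 0.37 on slides 1, 2 and 3. Itpr1 stood at 0.21 ± 0.06 (limma adjusted p = 0.564) and Itpr3 at 0.13 ± 0.05. The arrestin gene Arrb1, which ends receptor signalling, stood at 0.10 ± 0.04. By the same probes the lowest values were those of the receptor kinase gene Grk2 and the G protein gene Gna11, both at -0.05, of Gnai2 at -0.03 and of the endothelial nitric oxide synthase gene Nos3 at -0.02, while a dimmer Grk2 probe, A_52_P580974, stood at -0.13. With median centring in place of loess, which set the median of all tested probes at 0.14, the medians of the 3 lists were 0.11 (kallikreins), 0.19 (breakdown) and 0.24 (signalling). Ptgs2, Nos1 and Nos2, the inducible or neuronal enzymes downstream of kinin receptors, were well above background on 0 of 12 channels of either genotype.

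**Figure D4:**
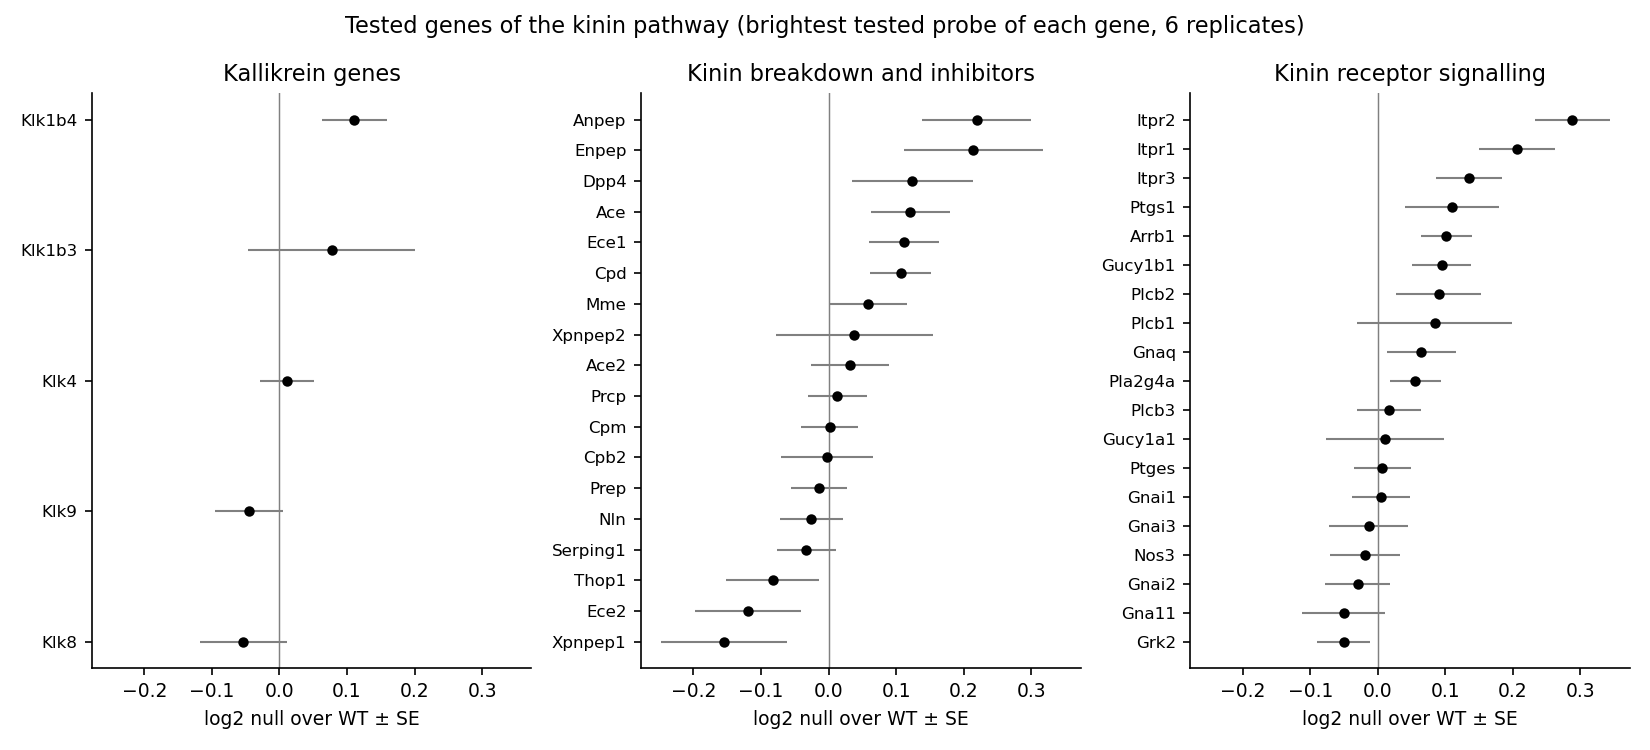
Log2 null over WT with its SE (horizontal axis) for the tested genes of the 3 pathway lists, by the brightest tested probe of each gene over 6 replicates. All values lie between -0.15 and 0.29, and none passed the limma test.

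Bdkrb2 and Bdkrb1 stand side by side on chromosome 12, and their 5 nearest genes with a probe on each side were read out as well. On the Bdkrb2 side these were Tcl1, Tcl1b4, Tcl1b3, Tcl1b5 and Tcl1b1, and on the Bdkrb1 side Atg2b, Gskip, Papola, Vrk1 and Bcl11b. By the brightest tested probe of each gene, 0 of the 8 tested passed by limma and 0 had an unadjusted p under 0.05. By those probes 1 was above 0 and 7 below, beside 6078 of 12647 tested genes above 0 over the whole array. The values ran from -0.10 (Bcl11b) to 0.06 (Tcl1). Probes A_52_P79278 of Papola and A_52_P338039 of Gskip, not the brightest of their genes, stood at 0.04 and 0.03. Bdkrb1, at 0.19, thus stood above all 8 of its tested neighbours in value, without a test of that difference.

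The genes most like each tested member were those with the smallest root-mean-square difference of dye-corrected log2 ratios over the 6 replicates, given as a description. For Bdkrb1 they were Col6a2 (0.0372), Tacc1 (0.0480) and Ackr2 (0.0615), where the median over all tested genes was 0.229. For Klk1 they were Pirb (0.0904), Car15 (0.105) and Lmod3 (0.109), with a median of 0.481. For Cpn1 they were Hpn (0.0427), Pcsk2 (0.0445) and Lilra6 (0.0475), with a median of 0.228. For Klk1b24 the nearest were Xlr3c (0.373) and the metallothionein genes Mt2 (0.530) and Mt1 (0.605), with a median of 1.13. Xlr3c stood at -1.15, -0.34 and 0.94 on slides 1, 2 and 3 and Mt2 at -0.37, -0.38 and 1.38, so these also changed sign between slides. The points share their arrays and slides.

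Skeletal muscle markers also had their highest median ratio on slide 3, the slide on which Klk1, Klk1b24 and Kng1 had their highest ratios. All 4 were tested and above 0, with medians of 0.16, 0.54 and 2.23 on slides 1, 2 and 3 and a summed level of 432 to 2617 in null channels and 425 to 612 in WT channels. Among the skeletal muscle markers Myog was highest on slide 2, at -0.01, 0.48 and 0.42 on slides 1, 2 and 3. Smooth muscle markers had medians of 0.19, 0.12 and 0.67, leukocyte markers 0.04, 0.02 and 0.28, and endothelial markers 0.07, 0.04 and 0.07. Kidney identity markers had medians of -0.01, 0.07 and -0.05, and all 10 of these genes were well above background on some array. Ret was so on only 0 of 12 null and 1 of 12 WT channels and was not tested. On slide 3 the tested identity markers ran from -0.31 (Wnt11) to 0.46 (Nphs1). The part of any of these markers in the kallikrein and kininogen values was not tested.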

How the data were processed

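Total RNA of null and WT kidneys was compared on 12 two-colour Agilent arrays. The authors deposited median spot and background intensity values per dye, not further normalized per the file headers, and the scanner software's log10 ratio of Cy5 over Cy3 (version 10.5.1.1 of Agilent Feature Extraction in the headers, 6.1 in the submitters' processing notes). The deposited series value table held log10 ratios, which matched the scanner's ratios turned to null over WT (r of 0.998 to 0.999, slopes of 1.00). This settled their scale and direction, and their centring stays unknown. Its column medians were 0.000114, -0.00174, -0.00332, -0.00315, 0.00645 and 0.00146 on null/WT arrays, and -0.00257, -0.00441, -0.000946, -0.000769, -0.0218 and -0.0100 on WT/null arrays.

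Background was corrected with normexp (offset 50), then loess was run within each array on log2 ratios, giving weight 0 to control spots and outliers. Duplicate arrays were averaged to 6 values per probe. The genotype and dye terms were fitted by limma 3.58.1 (R 4.3.3), adjusted by Benjamini-Hochberg over 22979 tested probes, with a threshold of 0.05. The median SE was 0.0506. Symbols came from the probes' accessions through a RefSeq table of GRCm38.p6, matched for 25097 of 41174 probes. The headers name mm9, so gene positions are given as chromosome and order only. A bound ("at least") sets the bright genotype's mean log2 level against the dim channel's own level or the lowest level well above background on that array, whichever is higher, and is open to dye bias within an orientation.

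Same-numbered replicates deviated together (r of 0.587, 0.517 and 0.413), so the numbers were taken as pairs through the shared slide, and a fit on 3 pair means was run beside the unpaired one. The labels do not say if both orientations of a number share RNA extracts. If they do, each genotype had only 3 independent samples, and p-values from the unpaired fit are too small. The fits were tested on simulated data with replicates drawn independently, so that check does not cover the pairing. The genes named were all members, up to 4 per direction with the smallest p in each list, 5 neighbours per side and the 3 most like each member. Ace, the undetected pathway genes and the markers named singly were picked after their values were seen. Members and lists were chosen with earlier results of these data known.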

Additional observations from a re-analysis of the deposited data

Results flagged for a closer look

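The Bdkrb2 probe had 1 replicate far from the others: WT/null replicate 3 stood at 0.278 on the log2 scale, and the other 5 lay between -0.11 and 0.01. The 2 arrays of that replicate differed, at 0.08 and 0.47. Their null channels read 33.5 and 36 units, the highest of the 12, and neither was well above background. About 1 in 20 groups of this size holds such a value by chance.

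Klk1b24 went opposite ways on different slides. The slide 3 mean was 1.33 with all 4 arrays above 0, and all 8 arrays of slides 1 and 2 were below 0. The limma F test of the difference between slides gave an adjusted p of 0.00215. That test was added after these values had been seen.

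Cpn1 was below 0 on all 4 arrays of slide 1, with a mean of -0.162, and above 0 on all 8 arrays of slides 2 and 3. The limma F test between slides did not pass for it (adjusted p = 0.136).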

How the results depend on the processing

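With the pairs as a block (replicate block), 4 probes passed by limma and the members' log2 values were the same. Other counts of passing probes were 15 with array 1 of WT/null replicate 3 left out, 148 with all 12 arrays and the replicate as a random block (112 higher), and 3 to 62 when leaving out a replicate or a number (3 without replicate 2, 62 without replicate 3). No alternative gave Bdkrb1, Klk1 or Cpn1 a limma adjusted p under 0.05 (lowest 0.115, 0.190 and 0.421). Klk1b24 turned to 0.05, 0.25 and 0.09 without null/WT replicate 1, replicate 1 and replicate 2, and was -0.99 without replicate 3 (range -0.99 to 0.25). Cpn1 turned to -0.025 without replicate 3 (range -0.025 to 0.19). Klk1b24 on slide 3 minus the other slides was 2.14 with array 1 of each replicate alone (limma adjusted p = 0.0673), and 2.23 to 8.36 and past the threshold under the other 14 alternatives. The count of probes that differ between slides, 341, was unstable: 149 with no background correction, 75 with offset 16, 11446 with median centring, 151 by the scanner's ratios, 132 by the value table, 170 with no filter, 1992 with only probes well above background on all 12 arrays (Cpn1 alone among the members), 1547 with that array left out, 55 and 1242 with array 1 or array 2 alone, and 38 to 9927 when leaving out a replicate. The cause was not tested.

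Median centring moved the median of all tested probes to 0.14 from -0.01, and under it Klk8 stood at 0.11, Xpnpep1 at 0.035, Ece2 at 0.010, Thop1 at 0.11, Serping1 at 0.15, Grk2 at 0.24, Gna11 at 0.14, Gnai2 at 0.18 and Nos3 at 0.15. Nos3 was 0.014 by the value table, and Klk4 was -0.027 with array 2 alone. Leaving out a replicate or a number also turned the sign of 9 pathway values. The ranges were -0.11 to 0.25 for Klk1b3, -0.021 to 0.033 for Klk4, -0.076 to 0.0028 for Klk9, -0.13 to 0.037 for Klk8, -0.30 to 0.0023 for Xpnpep1, -0.15 to 0.014 for Thop1, -0.13 to 0.037 for Gna11, -0.077 to 0.016 for Gnai2 and -0.084 to 0.041 for Nos3. Itpr2 passed with the random block (limma adjusted p = 0.00991), which leaves out the pairing of orientations by slide. With the 3 pairs as units its limma adjusted p was 0.904. No other named pathway probe passed under any alternative. Leaving out a whole slide was not run for the F test, which needs all 3 slides.

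Bdkrb2, and Klk1 on slide 1, were at background in nearly all channels, so a difference there was not detectable at this signal. Kng1 was well above background on few channels, and the size of the Bdkrb1, Klk1 and Klk1b24 ratios depends on how background is handled.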
